A study of Mus musculus with 2 samples.

Results

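The enzymes described here make serine and glycine and move the single carbon units that serine releases onto folate. They were 9 mouse genes taken by name: Phgdh, Psat1, Psph, Shmt1, Shmt2, Mthfd1, Mthfd2, Mthfd1l and Tyms. All 9 were found by gene symbol among 43346 rows with an Ensembl gene identifier, and the files list 43 transcripts for them. The data were poly(A)-selected RNA-seq libraries from G1E-ER4, an immortalised line of mouse erythroid cells that descends from a Gata1-null parent. GATA-1 activity is restored in it by a transgene that fuses GATA-1 to the hormone-binding domain of the oestrogen receptor. The cells had been kept for 24 hours in 10 nM 17beta-estradiol, the hormone that switches the fusion on. The 2 libraries, biological replicates 1 and 2, formed 1 group with 20412826 and 18564086 expected counts. No untreated cells were analysed here, so the values describe the hormone-treated line alone and show no response to the hormone. With 2 libraries an exact sign-flip test cannot go below p = 0.5, so each level is given per library and as a mean with its SD (n = 2), without a p-value.

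In mammalian cells PHGDH opens serine synthesis by oxidising 3-phosphoglycerate, an intermediate of glycolysis. PSAT1 then adds the amino group from glutamate, and PSPH removes the phosphate to leave serine. The serine hydroxymethyltransferases, SHMT2 in mitochondria and SHMT1 in the cytosol, turn serine into glycine and load its side-chain carbon onto tetrahydrofolate. MTHFD2 and MTHFD1L carry that carbon to formate in mitochondria, and MTHFD1 takes formate back onto folate in the cytosol for purine synthesis. TYMS spends the same carbon on thymidylate, a DNA precursor. Glycine is also a substrate for the first step of haem synthesis, a pathway that erythroid cells run at a high rate.

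The library pair showed abundant RNA for Shmt2 and Mthfd2 of the mitochondrial branch and for Psat1 of serine synthesis. There was no counted read for the first enzyme of serine synthesis. The mitochondrial enzyme gene Shmt2 was highest at 538 ± 33.7 TPM (a transcript level divided by length and scaled to a fixed total per library), and Phgdh had 0 counts in both libraries. Detection was set at 1 TPM in each library, and 8 of the 9 enzymes met it. The same rule detected 8840 of 21461 nuclear protein-coding genes, a share of 41.2%. The median over the 9 enzymes was 38.9 TPM, beside 20.7 TPM over the detected protein-coding genes and 0.08 TPM over all protein-coding genes. Because these are bulk cultures, fewer cells expressing a gene and less RNA per cell cannot be told apart.

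**Figure D1:**
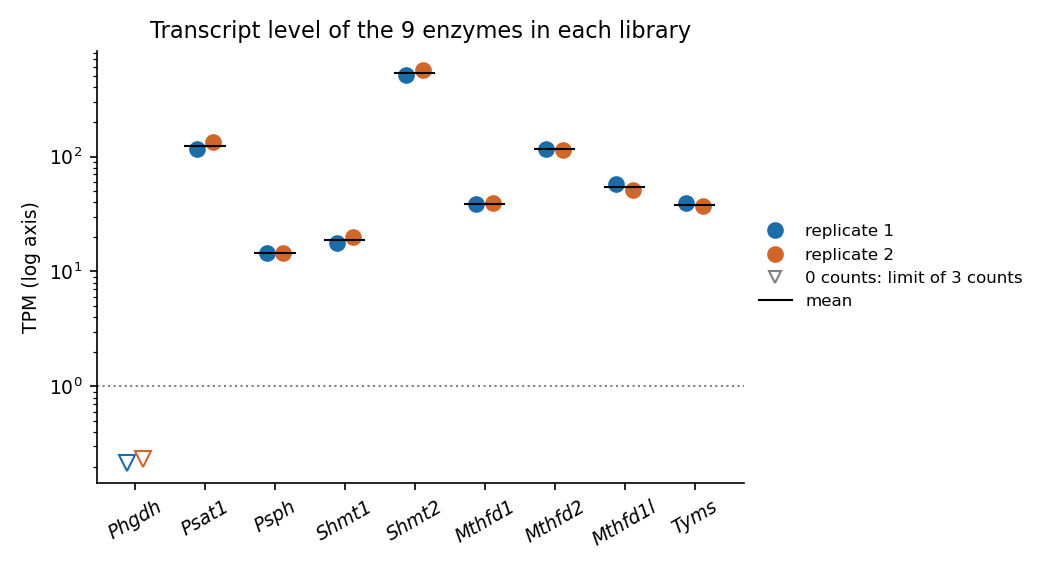
Level of each enzyme gene in replicate 1 and replicate 2 in TPM on a log axis, with a line at the mean and a dotted line at 1 TPM. Open triangles mark Phgdh at the level that 3 counts would give (0.215 and 0.236 TPM). The other 8 genes lie between 14.3 and 562 TPM.

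Phgdh (ENSMUSG00000053398), whose product starts the serine pathway, lies at chr3:98313170-98339990 on the minus strand (mm10). It had 0 expected counts and a posterior mean count of 0 in both libraries, and each of its 4 listed transcripts was at 0. A count of 0 allows up to 3 counts, which corresponds to 0.215 TPM in replicate 1 and 0.236 TPM in replicate 2 at the gene's listed effective length of 871.5 bases. The gene has many processed copies in the mouse genome, so its reads can fit elsewhere. Among all annotated transcripts of GENCODE M21, 24 other genes shared at least 1 stretch of 36 bases, the read length that the effective lengths imply, with Phgdh, and 20 of them are processed pseudogenes. Of these 24 genes, 11 were listed in the files, and all 11 had 0 counts in both libraries. The other 13 were not analysed here, the pseudogene Phgdh-ps1 among them. The longest coding transcript, Phgdh-201, holds 1858 such stretches, of which 534 (28.7%) occur in no other annotated gene. Over all Phgdh transcripts 1124 of 2448 stretches (45.9%) were its own. Uniqueness was judged against annotated transcripts and not against the whole genome. Among protein-coding genes, 8572 (39.9%) likewise had 0 counts in both libraries.

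Psat1 (ENSMUSG00000024640), the transaminase that follows, lies at chr19:15904678-15947337 on the minus strand. It had 4513 expected counts in replicate 1 and 3636 in replicate 2. Its level was 116 TPM in replicate 1 and 133 TPM in replicate 2 (125 ± 11.7 TPM), which placed it 998th of 21461 protein-coding genes. Psph (ENSMUSG00000029446), the phosphatase of the last step, lies at chr5:129765558-129787449 on the minus strand and was far lower. It had 282 and 279 expected counts, or 14.34 TPM in replicate 1 and 14.36 TPM in replicate 2 (14.35 ± 0.0141 TPM). That placed it 5314th, the lowest of the detected enzymes on whole-gene TPM. Set against the 3-count limit for Phgdh, Psat1 was at least 543-fold higher in replicate 1 and at least 565-fold higher in replicate 2 on the TPM scale. Psph was at least 66.8-fold higher than Phgdh in replicate 1 and at least 61.0-fold higher in replicate 2. These bounds take every Phgdh read as countable. If only reads in the 534 stretches of Phgdh-201 found in no other gene could be counted, a limit added after seeing the data, the bounds would be 333-fold and 346-fold for Psat1, and 41.0-fold and 37.4-fold for Psph. As counted, Psat1 stood above Psph in both libraries, and Phgdh lay below both under either limit. The place of Phgdh assumes that reads in its own stretches were counted, which was not tested.

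The windows before the start sites of Phgdh and Psat1 are shown because these consecutive enzymes stood far apart, one at 0 counts and the other second among the 9 genes in mean TPM. Each line gives the 250 bases before the RefSeq start site in GRCm38.p6, read 5′ to 3′ on the gene's strand, chr3:98339970-98340219 for Phgdh and chr19:15925060-15925309 for Psat1. Psat1 has a second RefSeq start site, whose window is not printed. Capitals mark the motif CCAAT, searched on both strands.
Phgdh: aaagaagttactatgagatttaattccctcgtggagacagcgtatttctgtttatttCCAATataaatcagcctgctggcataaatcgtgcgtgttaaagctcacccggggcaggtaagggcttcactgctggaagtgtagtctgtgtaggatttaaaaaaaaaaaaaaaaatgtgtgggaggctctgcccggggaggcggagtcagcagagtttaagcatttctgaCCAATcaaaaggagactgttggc
Psat1: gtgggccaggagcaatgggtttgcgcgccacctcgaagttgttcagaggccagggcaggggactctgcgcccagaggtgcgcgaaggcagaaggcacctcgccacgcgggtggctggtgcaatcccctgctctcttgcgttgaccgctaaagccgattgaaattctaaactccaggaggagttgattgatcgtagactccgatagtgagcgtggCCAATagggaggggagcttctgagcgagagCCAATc
The last bases of the Phgdh window lie in the first exon of Phgdh-201 in GENCODE M21. The Psat1 window ends just before the first exon of Psat1-201 and lies inside the wider span of the gene, where a longer transcript has an intron. Both printed windows hold 2 copies of CCAAT on the gene's strand, the other Psat1 window holds none, and 33.8% of 32851 RefSeq windows of this length hold it on either strand. Of 4 other motifs searched on both strands, CACGTG (present in 6.02% of all windows) matched in neither window. No match was found in these windows for AGATAA (9.99% of all windows) or for TGATGNAA (3.45%), and none for GGGCGG (32.7%). The other Psat1 window holds 1 GGGCGG and has a GC content of 65.6%. GC content was 44% in the Phgdh window with 7 CpG, and 59.6% in the Psat1 window with 16 CpG, beside medians of 52.4% and 6 CpG over all windows. These letters describe the windows, and no binding or chromatin measurement was analysed here.

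Psat1 reads were divided among transcripts in a way that differed between the libraries. Psat1-201, the coding transcript of 2617 bases, held 90.38% of the gene's TPM in replicate 1 and 65.57% in replicate 2. Psat1-202, a processed transcript of 438 bases with no annotated coding sequence, held 6.65% in replicate 1 and 31.86% in replicate 2. By expected counts the same short transcript had 50.05 reads (1.11% of the gene) in replicate 1 and 249.6 reads (6.87%) in replicate 2. A short transcript weighs more in TPM than in counts, since its reads are divided by a small length. The transcripts part at position 15917077 of chr19, the last base they share. In the 60 bases around that point, capitals mark what follows it. Psat1-202 reads on past the splice point into the adjoining genomic sequence and is spliced again 14 bases further on, and Psat1-201 is spliced to the exon that starts at 15915033.
Psat1-202: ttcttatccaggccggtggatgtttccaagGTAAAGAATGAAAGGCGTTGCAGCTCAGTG
Psat1-201: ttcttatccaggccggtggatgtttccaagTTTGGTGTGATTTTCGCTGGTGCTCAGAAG
Of the 403 stretches of 36 bases in Psat1-202, 133 occur in no other Psat1 transcript, and of the 2582 in Psat1-201, 578. The effective length of the gene followed this division, at 2415 bases in replicate 1 and 1870 bases in replicate 2. The difference between the libraries had opposite signs on the scales of counts and of TPM. After TMM scaling of counts, Psat1 was higher in replicate 1 by 0.17 on the log2 scale (95% interval of counting error 0.11 to 0.24), whereas the ratio of deposited TPM was -0.19.

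Shmt2 (ENSMUSG00000025403), the mitochondrial hydroxymethyltransferase, lies at chr10:127517123-127522444 on the minus strand. It had 18738 expected counts in replicate 1 and 18647 in replicate 2. Its level was 514 TPM in replicate 1 and 562 TPM in replicate 2, 200th of 21461 protein-coding genes. Shmt1 (ENSMUSG00000020534), the cytosolic enzyme, lies at chr11:60788104-60811718 on the minus strand, with 438.9 expected counts in replicate 1 and 419.9 in replicate 2. Its level was 17.8 TPM in replicate 1 and 19.8 TPM in replicate 2 (18.8 ± 1.41 TPM), 4663rd in rank. Shmt2 was 28.9-fold higher than Shmt1 in replicate 1 and 28.4-fold higher in replicate 2, a log2 ratio of 4.84 ± 0.02. Expected counts scaled by library total, without division by length, gave a log2 ratio of 5.44. The coding sequences of Shmt2-201 and Shmt1-201 were identical at 64.8% of 1422 aligned bases and shared no stretch of 36 bases. A read of that length that matched one coding sequence exactly could thus not match the other exactly. Matches with mismatches were not examined.

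Shmt2 is listed with a single transcript, which is coding, so its division was set by the annotation. Shmt1 is listed with 11, and the largest share of its TPM, 40.62% in replicate 1 and 38.16% in replicate 2, was assigned to Shmt1-206, a transcript of the retained intron class. Shmt1-201, the full-length coding form of 2858 bases, held 25.54% and 20.56%. By expected counts the order turned, with 47.0% and 40.1% on Shmt1-201 and 33.0% and 32.9% on Shmt1-206. Shmt1-205, another retained intron form of 582 bases, held 17.35% of TPM in replicate 1 and 18.65% in replicate 2. Shmt1-211, annotated as coding, held 16.49% in replicate 1 and 8.21% in replicate 2. Shmt1-209, a transcript of the nonsense-mediated decay class, was at 0 in replicate 1 and at 14.42% in replicate 2. Short reads have little to tell these last 2 forms apart from the others, since Shmt1-211 has 30 stretches of 36 bases found in no other Shmt1 transcript and Shmt1-209 has 32. Over transcripts with an annotated coding sequence alone, Shmt1 stood below its whole-gene level, at 7.49 TPM in replicate 1 and 8.57 TPM in replicate 2. The log2 ratio of Shmt2 over Shmt1 was then 6.07.

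**Figure D2:**
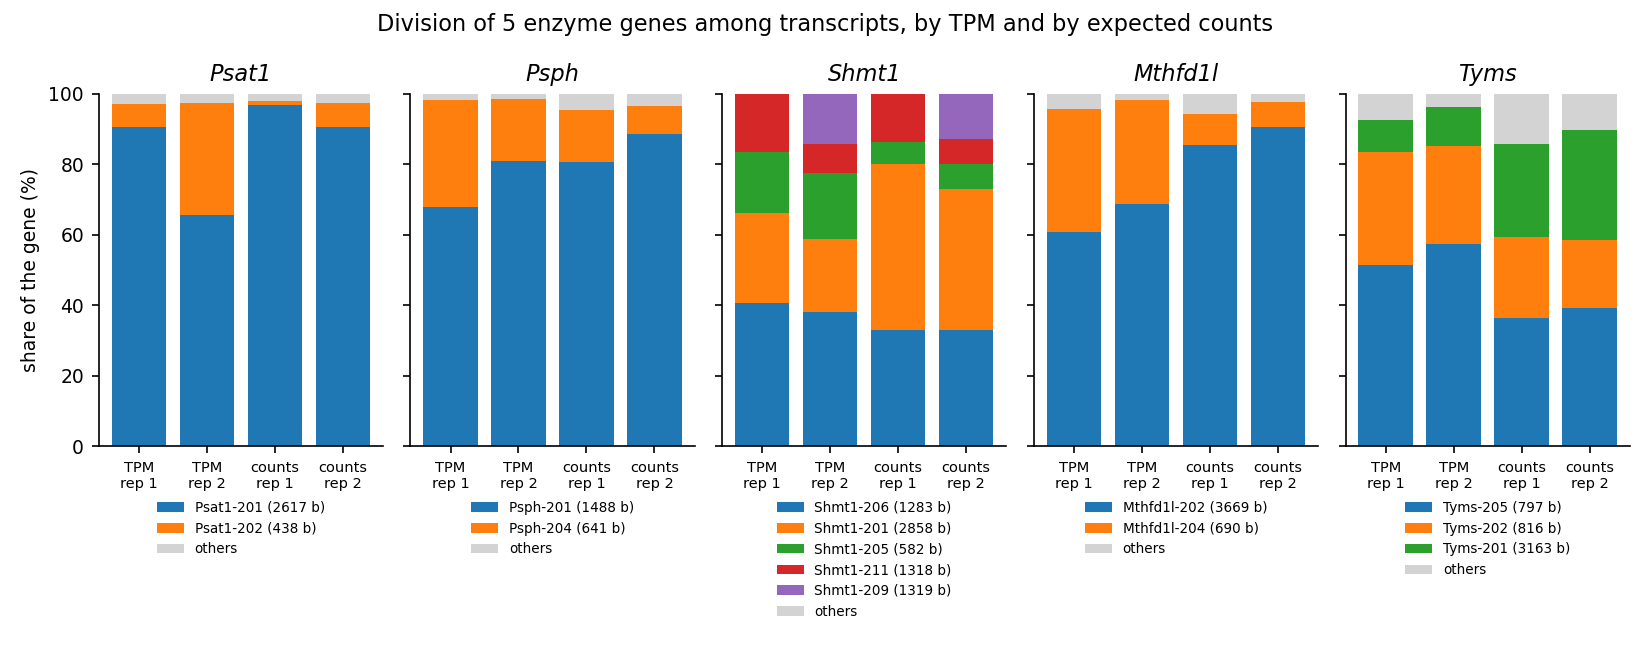
Stacked bars of the percent of each gene's TPM, or of its expected counts, held by each named transcript in replicate 1 and replicate 2, with lengths in bases in the legends and the remaining transcripts in grey. The short Psat1-202 takes 6.65% of TPM in replicate 1 and 31.86% in replicate 2, and Tyms-201 takes a larger share of counts than of TPM in both libraries.

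Mthfd2 (ENSMUSG00000005667), the mitochondrial dehydrogenase and cyclohydrolase, lies at chr6:83305691-83325908 on the minus strand. It had 3805 expected counts in replicate 1 and 3335 in replicate 2, or 117 TPM and 113 TPM (115 ± 3.17 TPM), 1084th in rank. Mthfd2-201 held 98.2% of its TPM. Its paralogue Mthfd2l, which catalyses the same mitochondrial step, stood at 0.53 TPM in replicate 1 and 0.78 TPM in replicate 2, below the detection level in both. Mthfd2 exceeded Mthfd2l by a log2 ratio of 7.48 ± 0.43, or 222-fold in replicate 1 and 145-fold in replicate 2. The paralogue had 18.75 and 25 expected counts, so the ratio rests on few reads. Their coding sequences were identical at 69.1% of aligned bases and shared no stretch of 36 bases.

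Mthfd1l (ENSMUSG00000040675), the mitochondrial synthetase that releases formate, lies at chr10:3973118-4167081 on the plus strand. It had 2376 expected counts in replicate 1 and 2047 in replicate 2, or 57.2 TPM and 50.9 TPM (54.0 ± 4.49 TPM). Mthfd1 (ENSMUSG00000021048), the trifunctional cytosolic enzyme, lies at chr12:76255298-76319803 on the plus strand. It had 2032 expected counts in replicate 1 and 1884 in replicate 2, or 38.5 TPM and 39.2 TPM (38.9 ± 0.488 TPM). On whole-gene TPM Mthfd1l was the higher of the pair in both libraries, by a log2 ratio of 0.47 ± 0.14. The order was the opposite for transcripts with an annotated coding sequence alone, where Mthfd1l stood at 37.2 TPM in replicate 1 and 35.8 TPM in replicate 2 and the log2 ratio was -0.09 ± 0.06. The change comes from Mthfd1l-204, a processed transcript of 690 bases that held 34.94% of the gene's TPM in replicate 1 and 29.57% in replicate 2. The same transcript held 8.84% and 7.03% of the gene's expected counts. Mthfd1l-202, the coding form of 3669 bases, held 60.80% and 68.60% of TPM. Mthfd1 is listed with 1 transcript. The coding sequences of Mthfd1l-202 and Mthfd1-201 were identical at 63.9% of aligned bases.

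Mthfd2 stood above both synthetase genes in both libraries. Its log2 ratio was 1.09 ± 0.08 over Mthfd1l and 1.57 ± 0.06 over Mthfd1 on TPM. Without division by length the ratios were 0.69 over Mthfd1l and 0.86 over Mthfd1, with the same sign. Over transcripts with a coding sequence they were 1.63 and 1.54 in that order.

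Tyms (ENSMUSG00000025747), thymidylate synthase, lies at chr5:30058202-30073617 on the minus strand. It had 679 expected counts in replicate 1 and 603 in replicate 2, or 39.2 TPM and 37.0 TPM (38.1 ± 1.57 TPM), 2911th in rank. Its TPM lay mainly on short transcripts outside the protein-coding class. Tyms-205, classed under nonsense-mediated decay and 797 bases long in the files, held 51.53% of TPM in replicate 1 and 57.44% in replicate 2. Tyms-202, a retained intron form of 816 bases, held 31.88% and 27.56%. Tyms-201, the coding transcript of 3163 bases, held 9.02% and 11.09% of TPM, though 26.2% and 31.1% of the expected counts. Of the 3124 stretches of 36 bases in Tyms-201, 2406 occur in neither Tyms-205 nor Tyms-202, but only 3 occur in no other Tyms transcript. Tyms-205, the leading form, has 32 of 583 stretches in no other Tyms transcript, and GENCODE M21 gives it 618 bases, so its share rests on little sequence of its own. Tyms-201 and Tyms-202 part after position 30064085 of chr5. In the 60 bases around that point, capitals mark what follows the last shared base. Tyms-202 reads on into the intron, and Tyms-201 continues in the exon that starts at 30063411.
Tyms-202: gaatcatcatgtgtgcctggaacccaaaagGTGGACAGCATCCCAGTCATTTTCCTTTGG
Tyms-201: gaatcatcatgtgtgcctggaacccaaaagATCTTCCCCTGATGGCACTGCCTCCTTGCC
The pseudogene Tyms-ps was not analysed here.

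The standing of Tyms relative to Shmt1 depended on which transcripts were summed. Tyms exceeded Shmt1 by a log2 ratio of 1.02 ± 0.17 on whole-gene TPM, and by 0.58 on depth-scaled counts. Transcripts with an annotated coding sequence gave 1.66, a set that counts the nonsense-mediated decay forms. In it Tyms stood at 24.62 and 26.10 TPM, of which Tyms-205 held 20.21 and 21.26 TPM. Transcripts of the protein-coding class, a restriction chosen after seeing the data, gave -0.78 ± 0.43, with Tyms lower.

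**Figure D3:**
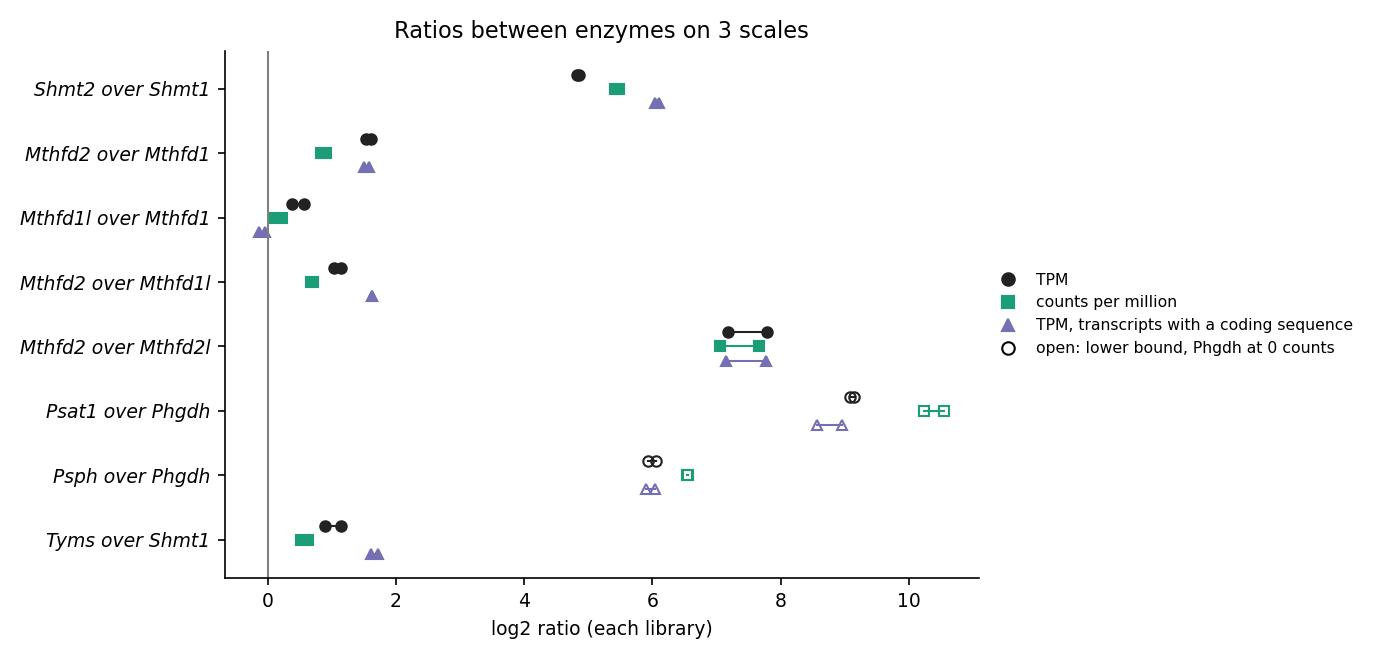
Log2 ratio between enzymes in each library (2 points per scale) on TPM, on depth-scaled counts and on the TPM of transcripts with a coding sequence, with open symbols for lower bounds against Phgdh at 0 counts. Shmt2 over Shmt1 lies above 4 on all 3 scales, while Mthfd1l over Mthfd1 lies above 0 on whole-gene TPM and below 0 over transcripts with a coding sequence.

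Ranked by TPM the order was Shmt2, Psat1, Mthfd2, Mthfd1l, Mthfd1, Tyms, Shmt1, Psph and Phgdh. On this scale Psat1 and Mthfd2 overlapped between their libraries, and so did Mthfd1 and Tyms, while the other neighbours did not. Several of these orders turned on other scales. Psat1 was above Mthfd2 on depth-scaled counts, and below it over transcripts with a coding sequence, at 106.7 and 88.9 TPM for Psat1 against 115 and 111 TPM for Mthfd2. Mthfd1 was above Tyms on both of those scales, at 38.5 and 39.2 TPM for Mthfd1 against 24.6 and 26.1 TPM for Tyms over transcripts with a coding sequence. Shmt1 was above Psph on whole-gene TPM but below it over transcripts with a coding sequence, at 7.49 and 8.57 TPM for Shmt1 against 14.1 TPM in both libraries for Psph. Over the protein-coding class Tyms was the lowest detected enzyme, at 3.54 and 4.10 TPM. Summed by compartment, a grouping chosen after the values were seen, the mitochondrial genes Shmt2, Mthfd2 and Mthfd1l held 689 TPM in replicate 1 and 726 TPM in replicate 2 (708 ± 26.0 TPM). The cytosolic and nuclear genes Shmt1, Mthfd1 and Tyms held 95.6 TPM and 96.0 TPM (95.8 ± 0.325 TPM). The mitochondrial sum was 7.21-fold higher in replicate 1 and 7.56-fold higher in replicate 2. The fold was 7.91 and 8.27 on depth-scaled counts, and 9.45 and 9.60 over transcripts with a coding sequence, which still count the nonsense-mediated decay forms. Over the protein-coding class alone the fold was 13.5 in replicate 1 and 14.5 in replicate 2. Shmt2 contributes most of the mitochondrial sum, so the fold follows that gene above all.

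The libraries agreed closely for the enzymes that were expressed, as they did for most genes. Genes with at least 50 scaled counts on average were compared after TMM scaling, and 8 of the 9 enzymes passed. Phgdh did not. None of the 8 differed over 1.5-fold between replicate 1 and replicate 2, beside 367 of 9352 genes in all, a share of 3.92%. With a share that low, none among 8 does not set the enzymes apart. The median absolute log2 ratio was 0.08 over the 8 enzymes and 0.14 over all genes that passed. These medians are not matched for counts, as the enzymes had from 281 (Psph) to 18712 (Shmt2) scaled counts and the limit was 50. Psat1 at 0.17 and Shmt2 at -0.13 (95% interval -0.16 to -0.10) were the pair whose intervals of counting error left out 0. For Mthfd1l the log2 ratio was 0.08, for Mthfd2 0.05 and for Tyms 0.03. For Mthfd1 it was -0.03, for Shmt1 -0.07 and for Psph -0.12. These intervals were computed from the read counts alone, so they cover counting error and no variation between cultures. Reads were counted without molecular identifiers, so duplicate reads were not allowed for either.

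**Figure D4:**
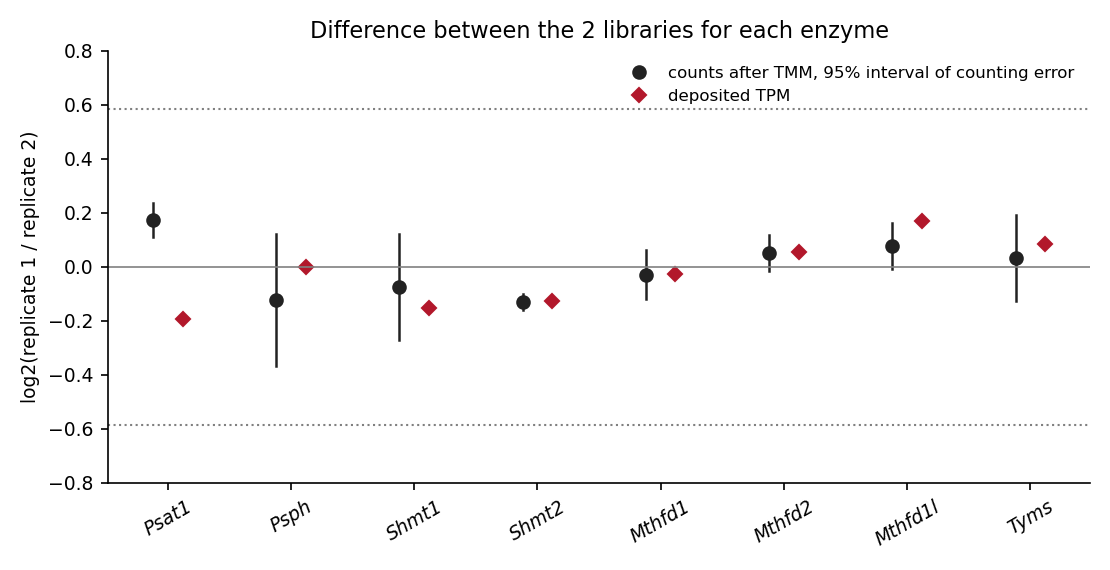
Log2 ratio of replicate 1 over replicate 2 for the 8 detected enzymes, from TMM-scaled counts with the 95% interval of counting error (circles) and from deposited TPM (diamonds), with dotted lines at 1.5-fold. All points lie inside those lines, and Psat1 has a positive circle at 0.17 and a negative diamond at -0.19.

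Other annotated genes overlap some of these enzyme genes, several of them on the opposite strand. The span of Psph overlaps that of Cct6a, a chaperonin subunit gene with 2293 expected counts in replicate 1 and 1696 in replicate 2, by 452 bases. The span of Shmt1 overlaps that of Smcr8 by 184 bases, and Smcr8 had 2318 and 2290.2 expected counts. Shmt2 overlaps Ndufa4l2 by 32 bases. Among other overlapping annotations, Gm3329 at Psat1, Gm24945 at Shmt1 and Gm16074 at Mthfd1l had 0 counts in both libraries, and Gm25515 at Mthfd1l had 0 counts in replicate 1 and 1 in replicate 2. Gm47525, Gm47526 and Gm34868 at Mthfd1 and Gm43890 at Mthfd2 were not analysed here. Use of strand in counting is not given in the sources used here, so reads from these stretches cannot be assigned with certainty. Psph and Shmt1 are the enzymes this touches most, since their own counts are well below those of the neighbour.

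The supply side of the pathway was uneven. Of 53 other listed genes, 31 (58.5%) were detected, beside 41.2% of protein-coding genes. The list covers serine, glycine, folate and methionine metabolism, with 11 genes of nucleotide synthesis and 2 regulators. All of these 11 and 2 were detected, which raises the share of the whole list. In serine supply and transport 5 of 9 genes were detected, led on whole-gene TPM by Slc1a5, a neutral amino acid exchanger, at 42.2 TPM. Over transcripts with a coding sequence Slc1a5 stood at 15.05 and 13.78 TPM, below Sfxn1 of the same group at 36.9 and 38.9 TPM. Sfxn1 was also the higher of the pair on depth-scaled counts in both libraries. Slc7a10, another serine transporter, had 0 counts in both libraries. In glycine use and supply 4 of 7 were detected. Slc25a38 encodes the mitochondrial glycine carrier required for haem synthesis in erythroid cells. It was at 332 TPM in replicate 1 and 351 TPM in replicate 2, the highest of the 53 genes on whole-gene TPM. Over transcripts with a coding sequence Slc25a38 stood at 189 and 208 TPM, below Paics of nucleotide synthesis at 317 and 333 TPM. On depth-scaled counts Slc25a38 was below Rrm1, also of nucleotide synthesis, in both libraries. Slc6a9, the plasma membrane glycine transporter GlyT1, was at 69.4 ± 4.22 TPM. Gldc, the decarboxylase of the glycine cleavage system, had 1 count in replicate 1 and 0 in replicate 2. Slc25a38 and Slc6a9 were thus well above the detection level, and Gldc was close to 0 in both libraries. The other listed genes of the cleavage system were uneven. Dld at 39.15 TPM and Gcsh at 5.65 TPM were detected, and Amt at 0.45 TPM was not.

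Folate uptake and retention had 2 of 7 genes detected. The highest was Fpgs, which adds the glutamate tail that keeps folate in the cell, at 11.1 TPM. Slc19a1, the reduced folate carrier, stood at 8.56 TPM in replicate 1 and 7.64 TPM in replicate 2. The proton-coupled folate transporter gene Slc46a1, the folate receptor gene Folr2 and the hydrolase gene Ggh had 0 counts in both libraries. Among other folate enzymes 2 of 6 were detected, led by Mtfmt, the mitochondrial enzyme that formylates the initiator methionyl-tRNA, at 9.99 TPM. Over transcripts with a coding sequence Mtfmt stood at 2.53 and 2.58 TPM. Mthfs, the other detected gene, was then at 0.35 and 0.73 TPM, below the detection level. Ftcd, of histidine breakdown, was at 0 counts.

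All 11 genes of nucleotide synthesis on the list, for thymidylate, deoxynucleotides and purines, were detected, from 16.7 TPM for Pfas to 329 TPM for Paics, both enzymes of purine synthesis. In methionine metabolism and transsulfuration 5 of 11 were detected, led on whole-gene TPM by Mat2b, a regulatory subunit of methionine adenosyltransferase, at 74.9 TPM. Cth, of cysteine synthesis, and Dmgdh, of choline breakdown, had 0 counts in both libraries. Ahcy, which clears S-adenosylhomocysteine, was listed at 2.64 TPM. That value is uncertain, because Ahcy shares 1903 stretches of 36 bases with Gm4737, which was listed at 96.8 TPM in replicate 1 and 102 TPM in replicate 2. The regulators Myc and Atf4, transcription factors known to act on serine and folate genes in mammalian cells, were at 91.8 TPM and 57.9 TPM. None of the 30 pathway genes with at least 50 scaled counts differed over 1.5-fold between the libraries after TMM scaling. The share over all such genes was 3.92%. Gcsh came nearest the limit at 1.48-fold. Its deposited TPM lay further apart, at 7.36 in replicate 1 and 3.94 in replicate 2.

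**Figure D5:**
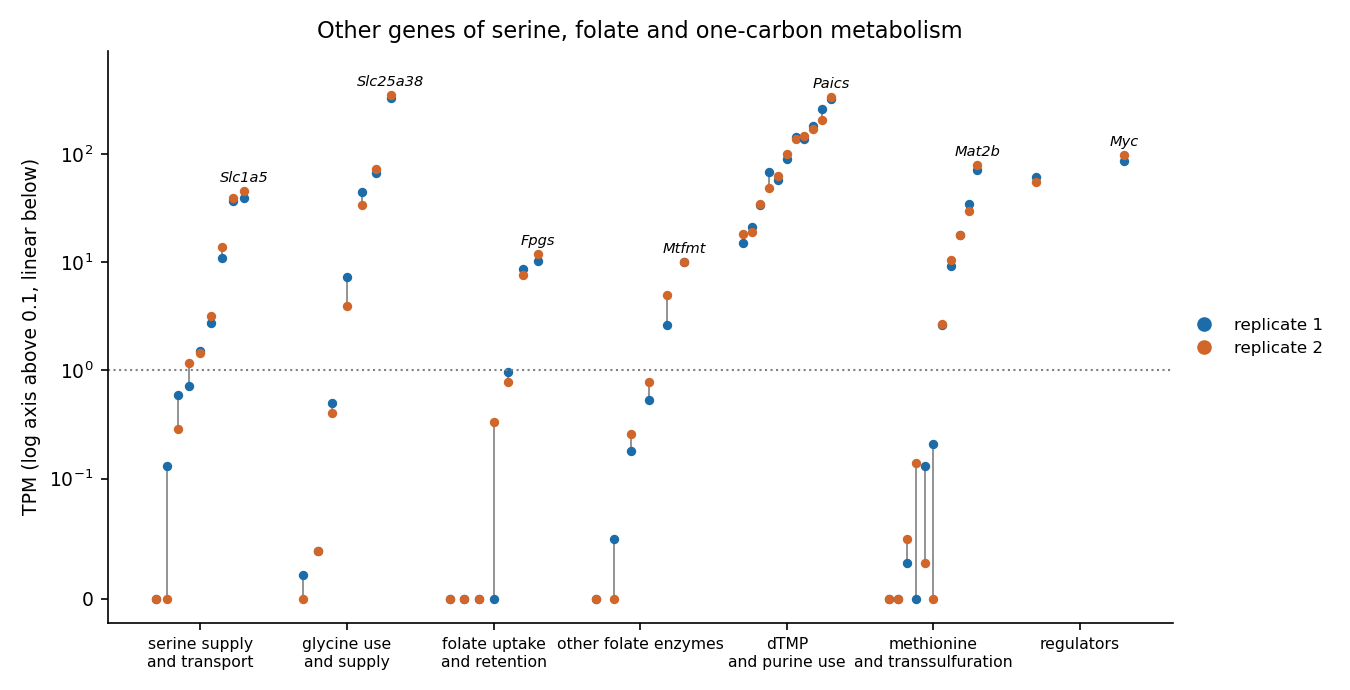
Levels of the 53 other pathway genes in replicate 1 and replicate 2 in TPM (log axis above 0.1, linear below), grouped by role and ordered by level within a group, with the highest gene of each group named and a dotted line at 1 TPM. All 11 genes of thymidylate and purine use lie above that line, and no gene of folate uptake and retention exceeds 11.9 TPM.

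Marker genes were those of the labelled cell type. All 8 erythroid markers were detected, from 94.6 TPM for the erythropoietin receptor gene Epor to 65450.3 TPM for the beta-globin gene Hbb-bs. Gata1 is among the 8, at 2714 TPM in replicate 1 and 3180 TPM in replicate 2. The line carries GATA-1 as a transgene, so detection of Gata1 says nothing of cell type. No marker of mast cells, macrophages and granulocytes, lymphoid cells or fibroblasts reached 1 TPM, and the summed level of each of these lists was at most 0.44 TPM in either library. In these lists 10 of 15 markers had 0 counts in both libraries.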

How the data were processed

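The data were 2 libraries of poly(A)-selected RNA in 1 group. Per the deposited manifests, reads were aligned and quantified on mm10 with the GENCODE M4 annotation. Not given in the sources used here are the aligner, the quantifier and the use of strand. The authors deposited an expected count per gene and transcript, which can divide a read among several loci. They also deposited TPM, its posterior mean, and each transcript's percent of the TPM of its gene, per the file headers. The posterior mean contains a prior, so it was kept as an alternative.

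Names, classes and coordinates came from GENCODE M21 on the same assembly, which matched 42462 of 43346 identifiers. Another 26345 rows without an Ensembl identifier, numbered or spike-in, held 0.0119% and 0.0110% of counts in replicate 1 and replicate 2 and were left out of the gene counts. Transcript lengths in the files differ from M21 for Mthfd1-201, Psph-201, Psph-204, Shmt2-201 and Tyms-205. The lowest level called detected was 1 TPM. Counts of 0 were bounded at 3 counts, or 0.147 and 0.162 CPM at the depth of each library. Library ratios used rounded expected counts with TMM scaling in edgeR 4.0.16 (R 4.3.3), exact 95% Clopper-Pearson intervals, at least 50 scaled counts and a 1.5-fold limit. DESeq2 1.42.0 size factors were an alternative. Shared stretches of 36 bases, alignments and figures used Python 3.11.15, Biopython 1.88 and matplotlib 3.10.9. Promoter windows came from RefSeq (GRCm38.p6).

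The text names all 9 enzymes, their transcripts with at least 5% of TPM in either library, the highest and lowest gene of each pathway group, ratio partners, genes at 0 counts and overlapping genes. Ahcy with Gm4737, Sfxn1, Rrm1, Dld, Gcsh, Amt, Mthfs and the compartment sums were chosen for the text after their values were seen. A pair of genes on the pathway list, with 1 ratio, is not reported here and is left out of its counts. The enzymes and gene lists were chosen with earlier results of these data known. The libraries are labelled biological replicates, and nothing further says how they were grown.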

Additional observations from a re-analysis of the deposited data

How the results depend on the processing

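Of the 8 ratios between enzymes, 6 kept their sign under every alternative run and 2 did not. Mthfd1l over Mthfd1 (0.47) was -0.089 over transcripts with a coding sequence and over the protein-coding class. Tyms over Shmt1 (1.02) was 0.58 on depth-scaled counts and -0.78 over the protein-coding class. It was 1.66 over transcripts with a coding sequence, which count the nonsense-mediated decay forms. Shmt2 over Shmt1 (4.84) was 4.68 with posterior means and 5.44 on depth-scaled counts. It was 6.07 over transcripts with a coding sequence and 6.36 over the protein-coding class. Depth-scaled counts gave 0.86 for Mthfd2 over Mthfd1, 0.17 for Mthfd1l over Mthfd1, 0.69 for Mthfd2 over Mthfd1l, 10.40 as the bound for Psat1 over Phgdh and 6.55 for Psph over Phgdh. Transcripts with a coding sequence gave 1.63 for Mthfd2 over Mthfd1l and 8.76 for Psat1 over Phgdh. Posterior means were not used for Phgdh, where the prior sets them. The protein-coding class was chosen after seeing the data.

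The median of the enzymes (38.9 TPM) was 36.6 with posterior means and 36.5 over transcripts with a coding sequence. Leaving out either library gave 39.2 for the median. Without 1 library each, the ratios spanned 4.83 to 4.85 for Shmt2 over Shmt1, 1.53 to 1.61 for Mthfd2 over Mthfd1, 0.38 to 0.57 for Mthfd1l over Mthfd1, 1.04 to 1.15 for Mthfd2 over Mthfd1l, 7.18 to 7.79 for Mthfd2 over Mthfd2l, 9.08 to 9.14 for Psat1 over Phgdh, 5.93 to 6.06 for Psph over Phgdh and 0.90 to 1.14 for Tyms over Shmt1. The number detected stayed at 8 at 0.5 TPM and at 10 TPM, and pathway genes detected numbered 34 and 23. No enzyme passed 1.5-fold between libraries under DESeq2 size factors, deposited TPM or no count filter. On deposited TPM the library ratio of Psat1 was -0.19, against 0.17, and that of Mthfd1l 0.17, against 0.08. No paired analysis was possible because there is 1 group. Counting limits the ratios to Mthfd2l and Phgdh most.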
